A study of Mus musculus with 12 samples.

Results

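Ephrins and semaphorins are the ligands, and Eph receptors, plexins and neuropilins the receptors, of a set of contact and short-range guidance systems. The set was taken from the gene symbols alone: all Eph receptors (14 genes), ephrins (8), class 3 to 7 semaphorins (20) and plexins (9) in the count files, together with Nrp1 and Nrp2. This gave 53 of the 26264 genes counted. They were measured by bulk RNA-seq in 12 libraries of mouse endometrial epithelial organoids, cultures raised in matrix from the epithelial lining of the uterus. The 4 groups of 3 libraries were Esr1 knockout (KO) with estrogen, KO without estrogen, wild type (WT) with estrogen and WT without estrogen. Esr1 encodes estrogen receptor alpha. All organoids were at passage 3. The labels name neither the estrogen, its dose and duration, the deleted exons, the driver of the deletion, the age of the donor mice behind these libraries, nor whether replicates stem from distinct mice or cultures, so p-values measure only the spread between these libraries. Their treatment note reads that neither genotype responded to the hormone.

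Eph receptors are receptor tyrosine kinases whose ligands, the ephrins, are themselves tied to the membrane, through a lipid anchor in the A class and a transmembrane segment in the B class. Cells that touch can therefore signal in both directions, and in epithelia the system is known for sorting cells into compartments and for adjusting junctions and repulsion between neighbours. Semaphorins are secreted (class 3) or membrane-bound (classes 4 to 7). Most act through plexins, whose cytoplasmic part switches off small GTPases of the Ras family, and most class 3 members need a neuropilin as the subunit that binds the ligand.

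Counted reads per library ran from 75654191 to 108665407. Levels are counts per 1e+06 counted reads (CPM) after TMM scaling, errors of levels are SD over 3 libraries, and adjusted p-values are from edgeR's quasi-likelihood test with Benjamini-Hochberg adjustment over 16465 genes and a threshold of 0.05. Esr1 itself had 19.3 to 20.3 CPM in treated KO and 15.9 to 16.7 CPM in untreated KO libraries, against 280.3 to 344 CPM in treated WT and 253 to 352 CPM in untreated WT libraries. Of the uterine markers, Hoxa13 had no reads in any library and Hoxa10 and Hoxa11 stayed under 0.02 CPM in each group mean, whereas Pax8, a Müllerian epithelial factor, had 76.3 ± 11.4 and 68.9 ± 7.13 CPM in treated and untreated KO, against 228 ± 15.0 and 236 ± 12.0 CPM in treated and untreated WT. That list of 7 genes had 4 tested, Esr1 and Pax8 among them, with 3 lower and 1 higher in KO in both treatments. Markers of stratified or basal epithelium were higher in KO for 9 of 9 genes, with a summed level of 6742 to 18072 CPM in treated KO and 9545 to 16475 CPM in untreated KO, against 8.10 to 10.2 and 7.50 to 10.4 CPM in treated and untreated WT. Markers of ciliated cells were likewise higher in 7 of 7, at 694 to 1085 and 804 to 1344 CPM in treated and untreated KO, against 0.967 to 1.36 and 0.695 to 0.950 CPM in treated and untreated WT, with Ccdc153 at 0 reads in WT. Of 11 markers of neurons and glia, the cells in which these guidance genes are best known, 6 were tested and 4 were higher in KO, with sums of 6.92 to 15.1 and 7.24 to 14.5 CPM in treated and untreated KO, against 2.44 to 2.95 and 1.41 to 2.10 CPM in treated and untreated WT, and with Elavl4 and Nefl at or near 0. Lists for stroma, smooth muscle and endothelium each summed to at most 10.8 CPM in any library. The mesothelium list summed to 24.7 to 87.0 CPM over all libraries, with 1 of its 2 tested genes higher in KO in both treatments. General epithelial markers summed to 3628 to 5497 CPM over all libraries, with 3 of 7 genes lower and 0 higher in KO in both treatments. The basal and ciliated lists moved with every genotype difference given here, and the marker lists' part in those differences was not tested. In bulk RNA, fewer cells of a type and less RNA per cell cannot be told apart.

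Receptors of the guidance systems were on the high side in KO. Ligands went both ways, with most of the falls among semaphorins and the largest rises in Efna3 and Sema6a. Of the 53 members, 46 had enough reads to be tested. With estrogen, 32 of 46 differed between KO and WT, where 70.8% of all tested genes did, and without estrogen 34 of 46 did, where the share over all genes was 71.7%. In both treatments with the same sign, 18 of 46 members (39.1%) were higher in KO, beside 34.1% of all genes, and 10 of 46 (21.7%) were lower, beside 30.8% of all genes. The number of members that differed was thus near the background of a transcriptome in which most genes differ. The median size of the differences was larger among members, though this was not tested. The median absolute log2 fold change of members was 1.09 with and 1.25 without estrogen, against 0.72 and 0.75 over all genes. At 2-fold or more in each treatment, 14 members were higher in KO (30.4%, beside 24.4% of all genes) and 8 were lower (17.4%, beside 11.2%).

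**Figure D1:**
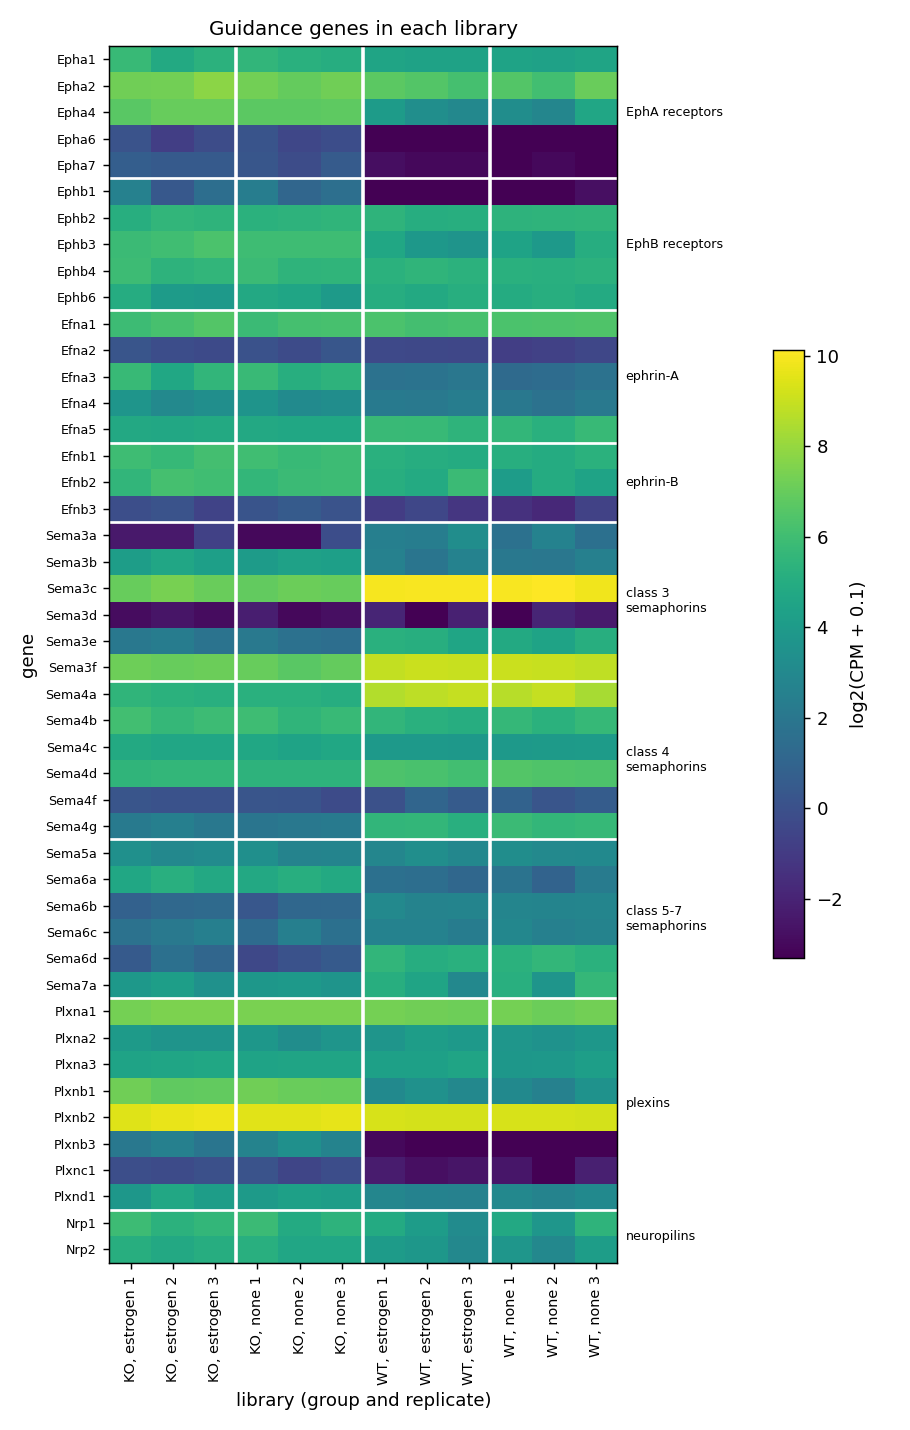
Level of the 46 tested guidance genes (rows, grouped by role) in each of the 12 libraries (columns), as log2(CPM + 0.1). Sema3c, Sema3f and Sema4a are bright in all WT libraries and darker in all KO libraries, while Plxnb1, Epha4, Efna3 and Sema6a are bright in KO; Epha6, Ephb1 and Plxnb3 are at or near 0 reads in WT.

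In single libraries, the 6 KO and 6 WT libraries did not overlap for 29 of 46 members, beside 65% of all genes. Every KO library lay above every WT library for 19 members, beside 34% of all genes, and below for 10, beside 31%. When members were split by role, a split made after their values had been seen, 12 of 20 tested receptors were higher in KO in both treatments, 0 were lower and 8 did not pass in both. Of the 26 tested ligands, 6 were higher, 10 were lower and 10 did not pass in both. Over all tested genes, 34.1% were higher and 30.8% lower in both treatments. Over all scalings, filters, fits and left-out libraries, 11 to 16 receptors were higher and 0 to 1 lower, and 6 to 10 ligands were higher and 9 to 10 lower. The 16 receptors and 10 ligands called higher came with library size alone in place of TMM, beyond which no setting gave more than 15 and 7, and the 1 receptor called lower came without treated KO replicate 1. The median log2 fold change of receptors was 1.38 with and 0.98 without estrogen, and that of ligands was -0.48 and -0.53, while the median over all genes was 0.020 and 0.039. Setting genes with no WT reads to the lower limit of their fold (log2 6.06 to 9.42) left these medians unchanged. It could not have moved them, since the limits lie far above the medians.

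The start regions of 4 strongly shifted members are shown for reference, 2 higher and 2 lower in KO. They were taken from called members that reached 10 CPM in a group and have a single start region in RefSeq. The windows run from 250 bases before to 50 after the start, 5′ to 3′ along the gene (build GRCm38.p6). The choice was not a strict ranking. Sema6a was left out, although its mean log2 fold change over both treatments was 3.3, against 3.2 for Epha4. Capitals mark GC boxes (GGGCGG read on either strand) and half-sites of the estrogen response element (GGTCA read on either strand). The regions are chr9:109095186-109095485 on the plus strand for Plxnb1, chr1:77515039-77515338 on the minus strand for Epha4, chr19:44989094-44989393 on the plus strand for Sema4g and chr5:14025026-14025325 on the plus strand for Sema3e.
Plxnb1: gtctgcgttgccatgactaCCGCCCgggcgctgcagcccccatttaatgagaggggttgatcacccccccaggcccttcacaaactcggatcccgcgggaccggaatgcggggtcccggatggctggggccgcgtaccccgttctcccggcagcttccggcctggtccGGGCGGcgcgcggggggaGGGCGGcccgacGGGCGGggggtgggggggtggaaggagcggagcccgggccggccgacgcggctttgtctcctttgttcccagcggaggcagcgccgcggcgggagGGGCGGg
Epha4: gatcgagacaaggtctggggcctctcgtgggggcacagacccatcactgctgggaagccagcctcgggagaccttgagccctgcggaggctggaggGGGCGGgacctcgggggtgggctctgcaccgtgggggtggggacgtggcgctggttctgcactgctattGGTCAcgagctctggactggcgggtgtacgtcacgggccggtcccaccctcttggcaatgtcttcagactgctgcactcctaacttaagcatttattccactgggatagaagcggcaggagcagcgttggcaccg
Sema4g: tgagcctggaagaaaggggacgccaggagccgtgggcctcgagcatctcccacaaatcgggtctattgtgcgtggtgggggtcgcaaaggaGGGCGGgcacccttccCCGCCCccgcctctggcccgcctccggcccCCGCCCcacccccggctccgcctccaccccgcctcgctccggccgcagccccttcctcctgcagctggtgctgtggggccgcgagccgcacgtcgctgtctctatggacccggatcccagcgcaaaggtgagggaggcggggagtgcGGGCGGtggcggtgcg
Sema3e: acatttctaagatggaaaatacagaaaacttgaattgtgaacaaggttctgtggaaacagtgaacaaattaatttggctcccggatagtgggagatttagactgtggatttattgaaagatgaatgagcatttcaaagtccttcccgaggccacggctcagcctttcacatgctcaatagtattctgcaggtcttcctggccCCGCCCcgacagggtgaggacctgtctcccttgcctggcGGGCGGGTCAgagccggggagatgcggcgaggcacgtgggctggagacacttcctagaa
Epha4 and Sema3e each hold 1 half-site, at 85 and 4 bases before the start, and Plxnb1 and Sema4g hold none; in Sema3e it overlaps a GC box. Over all windows of this length, 40.5% of 32851 held GGTCA, against 36.1% of the 61 windows of members. The full palindrome GGTCANNNTGACC was in 0 of 61 member windows and in 0.07% of all. GC boxes number 5 in Plxnb1, 4 in Sema4g, 2 in Sema3e and 1 in Epha4, and were in 75.4% of member windows, against 35.7% of all windows. A match is a string of letters and not a binding site.

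Among the EphA receptors, 4 of the 5 tested genes were higher in KO in both treatments and none was lower. Beside this and the role counts below, 34.1% of all tested genes were higher and 30.8% lower, and each role holds few genes. Epha4, which is known to bind ephrins of both classes, had 104, 126 and 128 CPM in treated KO libraries, against 16.6, 9.92 and 7.73 CPM in treated WT libraries. Untreated, Epha4 had 108, 107 and 111 CPM in KO, against 9.63, 7.02 and 24.6 CPM in WT. All 6 KO libraries lay close together and far above the WT libraries, of which untreated replicate 3 was the highest. Epha4 rose by 3.39 ± 0.43 on the log2 scale (± SE) with estrogen, a 10.5-fold difference (adjusted p = 3.94e-05), and by 2.98 ± 0.43 without (adjusted p = 8.53e-05).

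Epha2, a receptor of ephrin-A ligands that is widespread in epithelia, had the highest level of the class. It stood at 146, 155 and 225 CPM in treated KO, against 106, 91.2 and 72.4 CPM in treated WT, with no overlap. In untreated organoids, Epha2 had 153, 123 and 148 CPM in KO and 92.0, 66.2 and 133 CPM in WT, and WT replicate 3 lay among the KO values. It rose by 0.97 ± 0.25 with estrogen (adjusted p = 0.0047), while the log2 fold change of 0.54 ± 0.25 without estrogen did not pass (adjusted p = 0.0671). It lay near the threshold: it passed without untreated WT replicate 3 (0.84, adjusted p = 0.00810), without treated KO replicate 3 (0.56, adjusted p = 0.0483), with library size alone (0.77, adjusted p = 0.0135), with size factors (0.59, adjusted p = 0.0487) and by DESeq2 (0.59, adjusted p = 0.0331), but not in the other fits without 1 library.

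Epha1, an epithelial Eph receptor, had 53.2, 28.3 and 39.4 CPM in treated KO, against 22.7, 21.3 and 21.4 CPM in treated WT. Untreated, Epha1 had 46.7, 36.7 and 33.4 CPM in KO, against 22.4, 20.7 and 23.0 CPM in WT. The WT values were tight, the KO values spread, and the groups did not overlap. Epha1 rose by 0.89 ± 0.19 (adjusted p = 0.00171) with and 0.82 ± 0.19 (adjusted p = 0.00264) without estrogen. In a GRCm38 annotation, 6.97% of its exons overlap Zyx on the opposite strand. The counting took no account of strand and left out reads that fell on several genes.

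Rarer EphA receptors showed reads mostly in KO. Epha7 had 1.55, 1.30 and 1.31 CPM in treated KO, against 0.0411, 0.0242 and 0.0225 CPM in treated WT, a log2 fold change of 5.48 ± 0.49 (adjusted p = 1.89e-06). Untreated, Epha7 had 1.11, 0.777 and 1.33 CPM in KO, against 0, 0.0202 and 0 CPM in WT, where the 2 WT reads give a ratio of 141 (95% counting interval 38.7 to 1172). For Epha6 the values were 0.972, 0.469 and 0.779 CPM in treated KO and 1.03, 0.617 and 0.800 CPM in untreated KO, and no WT library had a read. Against a floor of 3 reads over a group, that is at least 66.5-fold higher with and at least 71.5-fold higher without estrogen (adjusted p = 4.37e-05 and 3.84e-05). Such folds and the counting intervals take each mate of a fragment as a separate read, so the intervals are too narrow and the folds may be too high. Epha3 was too low to be tested, with 14 reads in treated KO and 6 in untreated KO against 0 in WT. The untreated KO reads of Epha3 all came from replicate 2, and no fold is given for so few reads. Epha8 and Epha10 had at most 4 reads in any group, and Epha5 had none.

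Of the 5 EphB receptors, which bind mainly ephrin-B ligands, Ephb1 and Ephb3 were higher in KO in both treatments. Ephb3, known in gut epithelium for placing cells along the crypt, had 58.4, 65.2 and 80.6 CPM in treated KO, against 26.1, 14.5 and 12.5 CPM in treated WT. Untreated, Ephb3 had 60.7, 60.9 and 62.1 CPM in KO, against 22.6, 15.1 and 33.7 CPM in WT. Untreated WT replicate 3 and treated WT replicate 1 were the highest of WT and still below every KO library. It rose by 1.94 ± 0.31 (adjusted p = 0.00021) with and 1.36 ± 0.31 (adjusted p = 0.00207) without estrogen.

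Ephb1 was rare, at 6.01, 1.19 and 2.82 CPM in treated KO and 0 reads in treated WT, which is at least 304-fold higher. Untreated, Ephb1 had 5.10, 2.06 and 2.88 CPM in KO, against 0, 0 and 0.0463 CPM in WT, for a log2 fold change of 7.66 ± 1.03 (adjusted p = 0.000136). Replicate 1 was the highest of KO in both treatments. Ephb4, known from vessels where it pairs with ephrin-B2, had 59.7, 41.8 and 46.4 CPM in treated KO, against 38.2, 43.9 and 39.6 CPM in treated WT, and these overlapped. In untreated libraries, Ephb4 had 58.2, 42.5 and 44.4 CPM in KO, against 37.3, 35.9 and 40.0 CPM in WT. The log2 fold change of 0.28 ± 0.14 with estrogen did not pass (adjusted p = 0.099), and that of 0.36 ± 0.14 without did (adjusted p = 0.0413), a call lost when any of 5 single libraries was left out (untreated KO replicate 1, treated WT replicate 3, and each untreated WT replicate; adjusted p = 0.0517 to 0.194).

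The other EphB genes did not pass. Ephb2 averaged 41.4 ± 5.73 CPM in treated KO and 37.2 ± 5.64 CPM in treated WT, and 41.4 ± 2.80 CPM in untreated KO and 43.2 ± 1.66 CPM in untreated WT (SD, n = 3 each). Ephb6, a member without kinase activity, averaged 21.1 ± 9.09 CPM in treated KO and 32.3 ± 2.98 CPM in treated WT, with adjusted p = 0.0599 with and 0.13 without estrogen. Without treated KO replicate 1, its log2 fold change with estrogen was -1.02 (adjusted p = 0.00121).

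**Figure D2:**
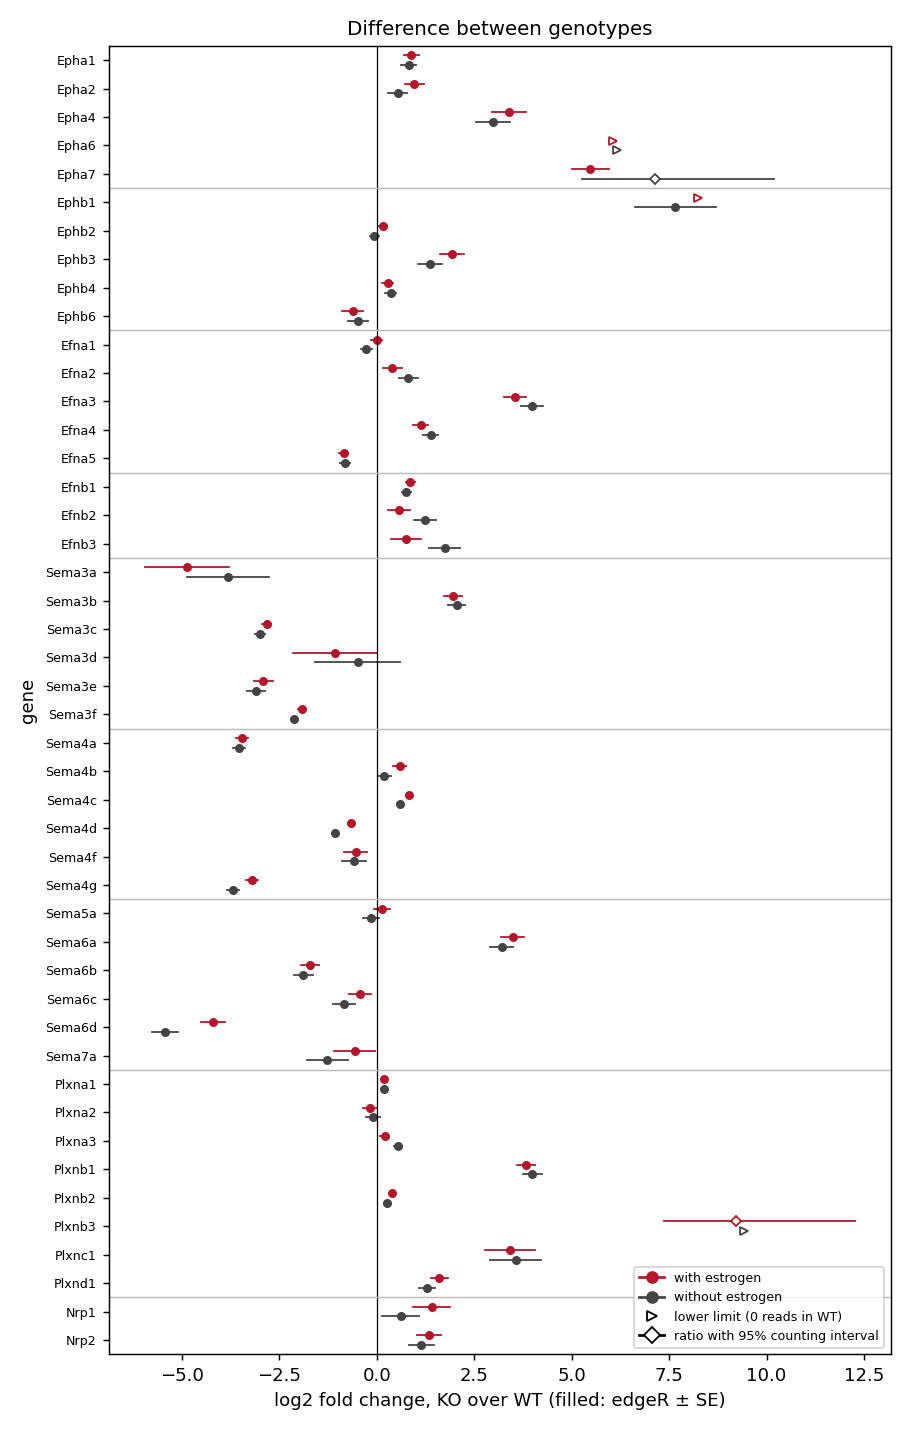
Log2 fold change of KO over WT (horizontal axis) for the 46 tested members (rows, grouped by role), with estrogen (red) and without (grey). Filled points are edgeR fits ± SE, open triangles are lower limits for genes with 0 WT reads, and open diamonds are read ratios with 95% counting intervals; points right of 0 prevail among Eph receptors and plexins, and points left of 0 among class 3 and 4 semaphorins. The lowest point, -5.44 without estrogen, is that of Sema6d, outside those classes.

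Of the 5 ephrin-A ligands, 2 were higher in KO in both treatments and 1 was lower. Efna3 had 54.0, 25.5 and 45.5 CPM in treated KO, against 3.24, 3.41 and 3.96 CPM in treated WT. Untreated, Efna3 had 55.9, 34.4 and 41.2 CPM in KO, against 2.41, 2.62 and 3.27 CPM in WT. Replicate 2 was the lowest of KO in both treatments, and yet far above WT. Efna3 rose by 3.56 ± 0.28 (11.8-fold, adjusted p = 9.47e-07) with and 3.99 ± 0.29 (15.9-fold, adjusted p = 4.33e-07) without estrogen.

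Efna4 had 12.6, 8.04 and 10.0 CPM in treated KO, against 4.65, 4.28 and 5.08 CPM in treated WT. Untreated, Efna4 had 12.1, 8.52 and 9.73 CPM in KO, against 4.01, 3.31 and 4.30 CPM in WT. It followed Efna3 in order of the KO libraries, with replicate 2 lowest and replicate 1 highest in both treatments. Efna4 rose by 1.13 ± 0.19 (adjusted p = 0.000274) and 1.39 ± 0.19 (adjusted p = 5.9e-05). Efna1, Efna3 and Efna4 lie next to each other on chromosome 3, with no coding gene between them in RefSeq.

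Efna1, the neighbour and the most abundant ephrin, was not called. It had 59.7, 73.5 and 91.9 CPM in treated KO, against 80.3, 69.7 and 74.3 CPM in treated WT, and 58.5, 72.3 and 73.6 CPM in untreated KO, against 79.8, 81.4 and 84.5 CPM in untreated WT. The treated groups overlapped fully, and the untreated KO libraries were all below the untreated WT libraries. The log2 fold changes were 0.0053 ± 0.14 (adjusted p = 0.975) with and -0.27 ± 0.14 (adjusted p = 0.106) without estrogen.

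Efna5, which binds EphA receptors and also Ephb2, was the one ephrin lower in KO. It had 27.8, 27.1 and 29.0 CPM in treated KO, against 55.1, 53.2 and 42.8 CPM in treated WT. Untreated, Efna5 had 27.6, 25.3 and 25.3 CPM in KO, against 47.0, 37.3 and 53.3 CPM in WT. The KO values lay within 4 CPM of each other and below all WT values. Efna5 fell by 0.85 ± 0.13 on the log2 scale with estrogen (adjusted p = 0.000113) and by 0.82 ± 0.13 without (adjusted p = 0.000149). Efna3 made up 26.4% and 29.2% of ephrin-A reads in treated and untreated KO, against 2.66% and 2.04% in treated and untreated WT, and Efna5 18.1% and 17.5% in KO, against 37.5% and 33.8% in WT. Efna2 averaged under 1 CPM in every group and passed without estrogen alone (log2 fold change 0.81, adjusted p = 0.0105).

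Ephrin-B ligands, which signal into the cell that carries them through their own cytoplasmic tail, had 1 of 3 genes higher in KO in both treatments and none lower. Efnb1 had 62.7, 51.5 and 68.5 CPM in treated KO, against 36.9, 33.2 and 30.3 CPM in treated WT. Untreated, Efnb1 had 63.4, 52.7 and 59.4 CPM in KO, against 34.6, 30.9 and 38.0 CPM in WT. No KO library reached down to a WT library. Efnb1 rose by 0.86 ± 0.12 (adjusted p = 7.19e-05) and 0.76 ± 0.12 (adjusted p = 0.000176). Efnb2 averaged 61.0 ± 12.6 CPM in treated KO and 40.8 ± 15.5 CPM in treated WT, a log2 fold change of 0.58 ± 0.28 that did not pass (adjusted p = 0.0831). Without estrogen it averaged 55.5 ± 6.46 CPM in KO and 23.5 ± 7.22 CPM in WT and rose by 1.24 ± 0.28 (adjusted p = 0.00224). In Efnb2, treated WT replicate 3 lay at 58.5 CPM among the KO values, and without it the log2 fold change with estrogen was 0.93 (adjusted p = 0.00813). Efnb3 averaged about 1 CPM or less in each group and passed without estrogen alone (log2 fold change 1.74, adjusted p = 0.00212).

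Class 3 semaphorins, the secreted ones, had a lower sum in KO, at 302 ± 18.9 CPM in treated and 268 ± 5.02 CPM in untreated KO, against 1557 ± 42.4 and 1563 ± 137 CPM in treated and untreated WT (SD, n = 3 each). Of 6 tested genes, 4 were lower, 1 was higher and 1 did not pass in both treatments. Sema3c, a ligand of both neuropilins, had 128, 167 and 132 CPM in treated KO, against 989, 1013 and 1021 CPM in treated WT. Untreated, Sema3c had 119.8, 136 and 127 CPM in KO, against 1035, 1119 and 900.4 CPM in WT. The gap between the genotypes was many times the spread within either. Sema3c fell by 2.82 ± 0.12 on the log2 scale with estrogen (adjusted p = 1.05e-08) and by 3.00 ± 0.12 without (adjusted p = 6.65e-09).

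Sema3f, known to act through Nrp2, averaged 134 ± 6.56 CPM in treated KO and 506 ± 32.1 CPM in treated WT, and 118 ± 12.7 CPM in untreated KO and 507 ± 38.5 CPM in untreated WT. It fell by 1.91 ± 0.098 (adjusted p = 3.25e-08) with and by 2.11 ± 0.098 (adjusted p = 1.55e-08) without estrogen. Sema3b, which lies 3 coding genes from Sema3f on chromosome 9, went the other way. It averaged 20.4 ± 3.53 CPM in treated KO and 5.26 ± 1.38 CPM in treated WT, and 19.0 ± 2.24 CPM in untreated KO and 4.58 ± 0.985 CPM in untreated WT, a rise of 1.96 ± 0.22 (adjusted p = 1.32e-05) and 2.05 ± 0.22 (adjusted p = 8.87e-06).

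Sema3e, which binds Plxnd1 without a neuropilin, had 4.15, 5.00 and 3.42 CPM in treated KO, against 36.6, 34.0 and 23.7 CPM in treated WT. Untreated, Sema3e had 4.18, 3.10 and 2.76 CPM in KO, against 29.1, 22.4 and 34.3 CPM in WT. Its highest KO library was at 5.00 CPM and its lowest WT library at 22.4 CPM. Sema3e fell by 2.91 ± 0.24 (adjusted p = 1.07e-06) with and by 3.09 ± 0.24 (adjusted p = 6.7e-07) without estrogen on the log2 scale.

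Sema3a, the classical Nrp1 ligand that repels axons, lies near Sema3e and beside Sema3d on chromosome 5. It had 0.0860, 0.0902 and 0.513 CPM in treated KO, against 5.43, 5.08 and 9.41 CPM in treated WT. Untreated, Sema3a had 0.0240, 0.0228 and 0.822 CPM in KO, against 3.19, 6.20 and 3.01 CPM in WT. Replicate 3 stood apart within KO in both treatments, with reads of 10, 10 and 54 in the treated KO libraries and 2, 2 and 73 in the untreated ones, and was below every WT library as well. Sema3a fell by 4.86 ± 1.08 (adjusted p = 0.00202) with and by 3.82 ± 1.04 (adjusted p = 0.00686) without estrogen. Without both KO replicates 3, a choice made after seeing these values, the log2 fold changes were -6.18 and -7.36. Sema3d averaged at most 0.1 CPM in each group and did not pass, and Sema3g was not tested, with 2 reads in treated KO and 0 in untreated KO against 14 and 10 in treated and untreated WT.

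**Figure D3:**
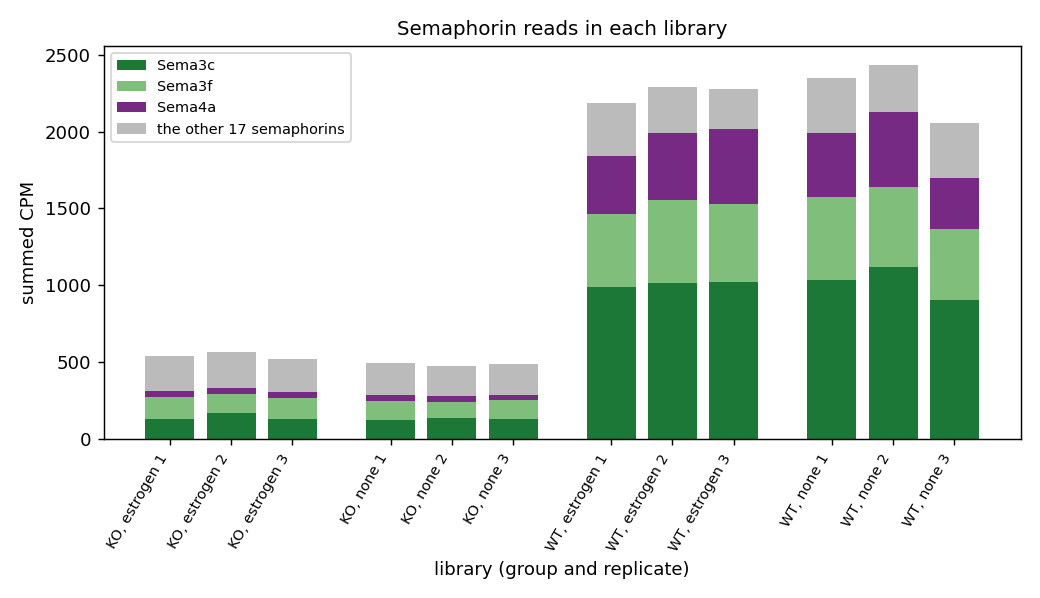
Summed CPM of the 20 semaphorins in each library (bars from 0), split into Sema3c, Sema3f, Sema4a and the other 17. The KO libraries reach 477 to 562 CPM and the WT libraries 2056 to 2435 CPM, and Sema3c, Sema3f and Sema4a make up most of each WT bar.

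Class 4 semaphorins are membrane-bound and are best known from immune cells and from plexin-B signalling. Of the 6 genes, 3 were lower in KO in both treatments, 1 was higher and the other two did not pass in both. Sema4a, whose known receptors include Plxnd1 and Timd2, had 44.3, 38.8 and 35.8 CPM in treated KO, against 378, 439 and 492 CPM in treated WT. Untreated, Sema4a had 36.7, 36.8 and 33.4 CPM in KO, against 417, 494 and 331 CPM in WT. Every WT library held several times the level of any KO library. Sema4a fell by 3.46 ± 0.16 (adjusted p = 1.63e-08) with and by 3.54 ± 0.16 (adjusted p = 1.23e-08) without estrogen.

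Sema4g had 4.45, 5.47 and 4.15 CPM in treated KO, against 45.6, 47.5 and 36.3 CPM in treated WT. Untreated, Sema4g had 3.64, 4.11 and 4.43 CPM in KO, against 57.9, 48.4 and 50.8 CPM in WT. The genotypes were far apart in both treatments. It fell by 3.20 ± 0.14 (adjusted p = 1.46e-08) with and by 3.69 ± 0.15 (adjusted p = 6.54e-09) without estrogen.

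Sema4d, the ligand of Plxnb1, had 45.1, 48.3 and 48.7 CPM in treated KO, against 81.5, 75.7 and 67.6 CPM in treated WT. Untreated, Sema4d had 41.2, 40.7 and 40.9 CPM in KO, against 90.8, 84.9 and 81.9 CPM in WT. The KO libraries were tight within each treatment and below all WT libraries. Sema4d fell by 0.66 ± 0.073 (adjusted p = 1.08e-05) with and by 1.07 ± 0.074 (adjusted p = 2.47e-07) without estrogen. The immune marker list stood lower in KO as well, at 108 to 188 and 101 to 124 CPM summed in treated and untreated KO, against 255 to 474 and 259 to 412 CPM in treated and untreated WT, with 3 of its 6 genes lower and 1 higher. Ptprc, the pan-leukocyte marker, had 0.0121 ± 0.0105 CPM in treated KO and 0 reads in untreated KO, against 5.46 ± 1.96 and 6.41 ± 1.14 CPM in treated and untreated WT, and Cd3e was too low to test. Csf1r, a macrophage marker, had 0.163 ± 0.172 and 0.309 ± 0.241 CPM in treated and untreated KO, against 36.9 ± 15.4 and 31.3 ± 10.1 CPM in treated and untreated WT. The part of immune cells in the levels of Sema4a and Sema4d was not tested.

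Sema4c, a ligand of Plxnb2, averaged 26.2 ± 1.82 CPM in treated KO and 14.8 ± 0.741 CPM in treated WT, and 24.4 ± 1.87 CPM in untreated KO and 16.1 ± 0.464 CPM in untreated WT. It rose by 0.82 ± 0.083 (adjusted p = 5.41e-06) and 0.60 ± 0.083 (adjusted p = 6.04e-05). Sema4b passed with estrogen alone (log2 fold change 0.59, adjusted p = 0.00762), at 58.6 ± 9.22 CPM in KO and 38.8 ± 6.20 CPM in WT. Sema4f averaged 0.947 to 1.43 CPM over the groups and did not pass.

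In classes 5 to 7, one member rose and a pair fell. Sema6d, a transmembrane ligand of Plxna1, had 1.32, 2.98 and 2.05 CPM in treated KO, against 46.4, 33.4 and 37.6 CPM in treated WT. Untreated, Sema6d had 0.649, 0.937 and 1.28 CPM in KO, against 37.9, 48.1 and 38.9 CPM in WT. In KO the treated libraries were all above the untreated ones, and all were far below WT. Sema6d fell by 4.21 ± 0.31 (18.5-fold, adjusted p = 5.02e-07) with and by 5.44 ± 0.33 (43.4-fold, adjusted p = 1.15e-07) without estrogen.

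Sema6a, a ligand of Plxna2 and Plxna4, had 25.6, 35.6 and 27.5 CPM in treated KO, against 2.98, 2.81 and 2.12 CPM in treated WT. Untreated, Sema6a had 28.1, 34.5 and 28.2 CPM in KO, against 3.33, 1.88 and 4.67 CPM in WT. Within KO, replicate 2 was the highest in both treatments, and no WT library came near. Sema6a rose by 3.49 ± 0.29 (adjusted p = 1.47e-06) with and 3.20 ± 0.29 (adjusted p = 2.29e-06) without estrogen, opposite to Sema6d.

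Sema6b had 1.70, 2.27 and 2.42 CPM in treated KO, against 8.04, 6.28 and 6.68 CPM in treated WT. Untreated, Sema6b had 1.18, 2.18 and 2.20 CPM in KO, against 6.82, 6.66 and 6.95 CPM in WT. The KO values were lower throughout. Sema6b fell by 1.72 ± 0.23 (adjusted p = 5.58e-05) with and by 1.88 ± 0.24 (adjusted p = 2.85e-05) without estrogen. Sema6c passed without estrogen alone (log2 fold change -0.83, adjusted p = 0.0184), a call lost without any of 3 libraries (untreated KO replicates 1 and 3 and untreated WT replicate 1) or with library size alone (adjusted p = 0.0693). Sema5a averaged 7.79 to 8.98 CPM over the groups and did not pass, and Sema5b had 2 reads in all.

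Sema7a, a lipid-anchored semaphorin that binds Plxnc1 and integrins, had uneven values in WT. It had 14.4, 18.6 and 11.2 CPM in treated KO, against 34.6, 23.0 and 7.76 CPM in treated WT, and 14.1, 14.8 and 12.3 CPM in untreated KO, against 35.8, 12.8 and 50.3 CPM in untreated WT. Some WT libraries lay among or below the KO libraries. The log2 fold change was -0.56 ± 0.52 with estrogen (adjusted p = 0.35) and -1.26 ± 0.53 without (adjusted p = 0.0509). The second value lay near the threshold. It passed without untreated WT replicate 2 (-1.65, adjusted p = 0.0106) and without treated WT replicate 1 or 3 (both -1.26, adjusted p = 0.038 and 0.0187). It also passed by DESeq2 (-1.21, adjusted p = 0.0233), with only the groups compared (-1.25, adjusted p = 0.0358) and in the fit that was not robust (-1.26, adjusted p = 0.048).

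Plexins made up the largest share of receptor reads, with summed levels of 1176 ± 89.7 CPM in treated KO and 1129 ± 20.1 CPM in untreated KO, against 823 ± 18.8 and 828 ± 12.2 CPM in treated and untreated WT. Of the 8 tested plexins, 5 were higher in KO in both treatments and none was lower. Plxnb1, the receptor of Sema4d, had 149, 116 and 119 CPM in treated KO, against 8.21, 11.3 and 7.57 CPM in treated WT. Untreated, Plxnb1 had 151, 130.5 and 128 CPM in KO, against 8.15, 5.98 and 11.6 CPM in WT. All KO libraries stood above 100 CPM and all WT libraries under 12 CPM. Plxnb1 rose by 3.83 ± 0.24 (14.2-fold, adjusted p = 1.69e-07) with and 3.99 ± 0.24 (15.9-fold, adjusted p = 1.16e-07) without estrogen. An unnamed gene model, Gm7628, overlaps 2.97% of its exons on the other strand.

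Plxnb2, the most abundant plexin and a receptor of Sema4c, differed by a small amount. It had 715, 826 and 899 CPM in treated KO, against 632, 621 and 609.8 CPM in treated WT. Untreated, Plxnb2 had 749.7, 741 and 789 CPM in KO, against 638, 641 and 619 CPM in WT. The genotypes did not overlap, though they lay close. Plxnb2 rose by 0.39 ± 0.085 (adjusted p = 0.00168) with and 0.26 ± 0.085 (adjusted p = 0.0158) without estrogen, the second call being lost without untreated KO replicate 3 (adjusted p = 0.0547).

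Plxnb3, a receptor of Sema5a, had almost all its reads in KO. It had 4.02, 5.69 and 3.61 CPM in treated KO, against 0.0206, 0 and 0 CPM in treated WT, where 2 WT reads give a ratio of 597 (95% counting interval 165 to 4937). Untreated, Plxnb3 had 6.47, 10.6 and 6.30 CPM in KO and no read in WT, at least 686-fold higher. Untreated KO libraries were above the treated ones. Both comparisons passed, with adjusted p = 1.21e-06 with and 5.31e-07 without estrogen. Plxnb1 accounted for 13.7% and 15.1% of plexin-B reads in treated and untreated KO, against 1.43% and 1.34% in treated and untreated WT.

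Plxnd1, the receptor of Sema3e, had 13.9, 26.4 and 18.2 CPM in treated KO, against 7.02, 6.14 and 6.0 CPM in treated WT. Untreated, Plxnd1 had 15.9, 20.1 and 17.9 CPM in KO, against 7.53, 6.29 and 8.24 CPM in WT. Replicate 2 was the highest of KO in both treatments. Plxnd1 rose by 1.61 ± 0.21 (adjusted p = 3.99e-05) with and 1.29 ± 0.21 (adjusted p = 0.000194) without estrogen. Plxnc1, the Sema7a receptor, averaged 0.807 ± 0.0688 CPM in treated KO and 0.0730 ± 0.0276 CPM in treated WT and rose by 3.43 ± 0.64 (adjusted p = 0.000575).

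Plexin-A receptors, which team with neuropilins, differed less. Plxna1 averaged 172 ± 11.6 CPM in treated KO and 150.3 ± 9.23 CPM in treated WT. It passed narrowly with estrogen (0.20 ± 0.076, adjusted p = 0.037), a call lost in 8 of the alternative settings. Without estrogen it narrowly missed (0.18 ± 0.076, adjusted p = 0.0502). There it passed by DESeq2 (0.23, adjusted p = 0.0173), with size factors (0.23, adjusted p = 0.0225), with library size alone (0.41, adjusted p = 0.000615) and in some other settings. Plxna3 averaged 22.7 ± 0.624 CPM in untreated KO and 15.5 ± 2.48 CPM in untreated WT and passed without estrogen alone (log2 fold change 0.55, adjusted p = 0.000963). Plxna2 averaged 12.2 to 15.3 CPM over the groups and did not pass. Plxna4 had 0 reads in KO and 6 in each WT group, too few for a fold, and those of untreated WT all came from replicate 1.

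Of the neuropilins, which also bind vascular endothelial growth factors, Nrp2 passed in both treatments and Nrp1 with estrogen alone. Nrp2 had 34.5, 27.6 and 33.3 CPM in treated KO, against 16.3, 13.6 and 7.74 CPM in treated WT. Untreated, Nrp2 had 35.8, 25.0 and 24.4 CPM in KO, against 13.3, 7.67 and 17.7 CPM in WT. All KO libraries were above all WT libraries. Nrp2 rose by 1.34 ± 0.32 (adjusted p = 0.00294) with and 1.14 ± 0.32 (adjusted p = 0.0073) without estrogen.

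Nrp1 had 59.0, 40.2 and 48.5 CPM in treated KO, against 29.7, 16.9 and 8.94 CPM in treated WT. Untreated, Nrp1 had 57.1, 29.6 and 41.7 CPM in KO, against 27.4, 13.1 and 43.4 CPM in WT, where WT replicate 3 exceeded 2 of the KO libraries. Nrp1 rose by 1.41 ± 0.47 with estrogen (adjusted p = 0.0202), a call lost without treated KO replicate 1, treated WT replicate 2 or treated WT replicate 3 (adjusted p = 0.0563, 0.0603 and 0.0646). Without estrogen the log2 fold change was 0.61 ± 0.47 (adjusted p = 0.255).

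Several ligands and the receptors they are known to bind thus differed in opposite directions between the genotypes. Sema3e, Sema4d and Efna5 were lower in KO in both treatments while Plxnd1, Plxnb1 and Epha4 were higher. Sema6d was lower while Plxna1 was close to level, and Sema3f was lower while Nrp2 was higher. Other pairs moved the same way: Sema4c and Plxnb2 were both higher, as were Efna4 and Epha4. These pairs were picked after the values were seen, and no test was made of their joint direction.

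**Figure D4:**
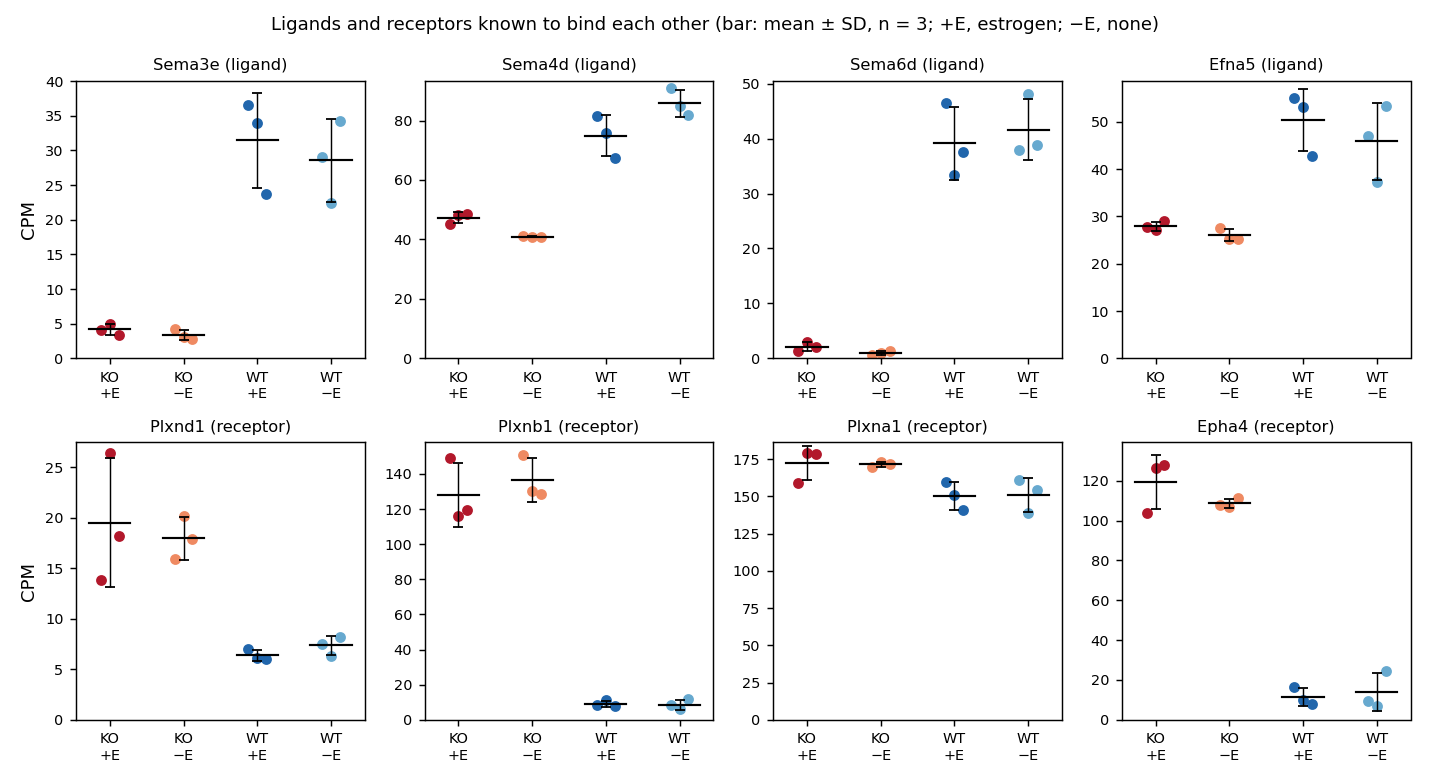
CPM of 4 ligands (top row) and of a receptor each is known to bind (bottom row) in every library, with mean ± SD (n = 3) for KO with estrogen, KO without, WT with and WT without. The 6 KO libraries are below the 6 WT libraries for Sema3e, Sema4d, Sema6d and Efna5, above them for Plxnd1, Plxnb1 and Epha4, and overlap them for Plxna1.

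Levels of different genes were compared as CPM per kilobase of merged exon (GENCODE M21, GRCm38, not the annotation used in counting, so the ranks are approximate), over the 6 libraries of a genotype. In KO, Plxnb2 led at 119.8 ± 10.3, followed by Epha2 at 40.5 ± 8.79, Efna1 at 39.1 ± 6.62, Sema3f at 36.1 ± 3.72 and Sema3c at 24.6 ± 2.99 CPM per kilobase (SD, n = 6). Epha2, Efna1 and Sema3f did not differ beyond their spread. In WT the order began with Sema3c at 184 ± 12.9, Sema3f at 145 ± 9.09, Sema4a at 124 ± 18.7 and Plxnb2 at 95.4 ± 1.84 CPM per kilobase, followed by Efna1 at 42.8 ± 2.93 and Epha2 at 23.9 ± 6.15. Semaphorins thus held the top 3 places in WT and none of the top 3 in KO. In reads, Sema3c made up 26.2% and 26.3% of semaphorin counts in treated and untreated KO, against 44.8% and 44.6% in treated and untreated WT. The summed level of Eph receptors was 521 ± 53.8 and 468 ± 30.7 CPM in treated and untreated KO, against 251 ± 32.1 and 269 ± 54.3 CPM in treated and untreated WT.

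Estrogen made no member pass in either genotype. In KO, 0 of 46 members and 0% of all genes were called, with 3 members under an unadjusted p of 0.05 (beside 2.5% of all genes). In WT, 0 of 46 were called (0% of all genes), again with 3 under the unadjusted level (beside 5.36%). The interaction of genotype and estrogen was called in 0 of 46 (0% of all genes), with 4 under the unadjusted level (beside 4.41%), and DESeq2 called 0 members in each of these comparisons (0.128%, 0.41% and 0.161% of its genes in KO, in WT and for the interaction). The lowest adjusted p among members was 1 in KO, 0.617 in WT (Plxna3) and 0.974 for the interaction. Sema6d averaged 2.12 ± 0.828 CPM in treated KO and 0.957 ± 0.318 CPM in untreated KO, a log2 fold change of 1.14 ± 0.30 that did not pass. In WT, Efnb2 averaged 40.8 ± 15.5 CPM with and 23.5 ± 7.22 CPM without estrogen (0.80 ± 0.28, adjusted p = 0.838), and Plxna3 averaged 20.9 ± 1.60 CPM with and 15.5 ± 2.48 CPM without (0.44 ± 0.11, adjusted p = 0.617). A p that misses the threshold does not show that the hormone had no effect.

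**Figure D5:**
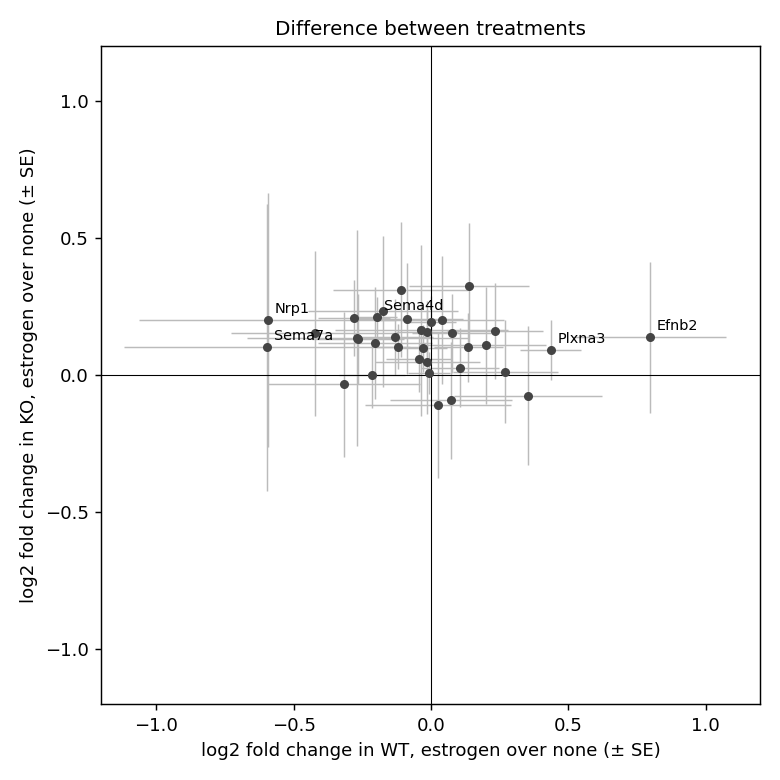
Log2 fold change of estrogen over none in KO (vertical axis, ± SE) against that in WT (horizontal axis, ± SE) for the 35 members with at least 1 CPM in every group. Points gather around 0 on both axes, with Efnb2 at 0.80 and Nrp1 and Sema7a near -0.6 in WT, and none passed. Members under that level in a group, Sema6d (1.14 in KO) and Plxnb3 (-0.81 in KO) among them, are not shown.

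From a list of Slit, Robo, netrin and related genes, 19 of 23 were tested, of which 11 (57.9%) were higher and 2 (10.5%) lower in KO in both treatments, beside 34.1% and 30.8% of all genes (median log2 fold change 1.47 with and 1.60 without estrogen). Robo1, a Slit receptor, averaged 48.1 ± 4.89 CPM in treated KO and 6.76 ± 0.290 CPM in treated WT, a rise of 2.83 ± 0.094 (adjusted p = 2.61e-09). Robo2 averaged 13.9 ± 5.37 CPM in treated KO and 0.135 ± 0.116 CPM in treated WT, a rise of 6.63 ± 0.50 (adjusted p = 6.51e-07). The genes that fell here both encode ligands. Ntn1, a netrin, averaged 11.1 ± 5.56 CPM in treated KO and 679 ± 72.3 CPM in treated WT (log2 fold change -5.93 ± 0.35, adjusted p = 1.11e-07), and Slit2 averaged 3.22 ± 0.657 CPM in treated KO and 13.5 ± 7.55 CPM in treated WT (log2 fold change -2.07 ± 0.43, adjusted p = 0.00133). The same genes passed with the same sign without estrogen, at 3.01, 6.75, -5.94 and -2.72 for Robo1, Robo2, Ntn1 and Slit2.

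Of co-receptors and other partners of plexins, neuropilins and semaphorins, 19 of 22 were tested, with 7 (36.8%) higher and 6 (31.6%) lower in KO in both treatments, near the shares over all genes of 34.1% and 30.8% (median log2 fold change 0.046 with and 0.074 without estrogen). Chl1, an adhesion molecule that joins neuropilin complexes, averaged 10.2 ± 6.60 CPM in treated KO and 8.04 ± 3.73 CPM in untreated KO and had no read in WT, at least 924-fold and 699.8-fold higher. Plxdc1 averaged 3.11 ± 0.192 CPM in treated KO and 0.0380 ± 0.0152 CPM in treated WT (log2 fold change 6.33 ± 0.37, adjusted p = 8.08e-08). Timd2, a receptor of Sema4a, fell with its ligand, to 2.90 ± 0.744 CPM in treated KO, against 118 ± 8.98 CPM in treated WT (log2 fold change -5.35 ± 0.22, adjusted p = 8.86e-09). Nrcam averaged 0.0416 ± 0.0196 CPM in treated KO and 1.02 ± 0.595 CPM in treated WT (log2 fold change -4.56 ± 0.63, adjusted p = 6.08e-05).

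Among signalling proteins downstream and the proteases that shed these ligands and receptors, 43 of 44 were tested, with 14 (32.6%) higher and 11 (25.6%) lower in KO in both treatments, near or under the same shares over all genes (median log2 fold change 0.11 with and 0.059 without estrogen). Vav3, an exchange factor used by Eph receptors, averaged 34.7 ± 17.3 CPM in treated KO and 0.238 ± 0.136 CPM in treated WT (log2 fold change 7.19 ± 0.50, adjusted p = 3.77e-07). Sh3bp1, a GTPase-activating protein for Rac, averaged 48.5 ± 9.68 CPM in treated KO and 3.77 ± 0.440 CPM in treated WT (log2 fold change 3.69 ± 0.17, adjusted p = 1.89e-08). Dpysl5 and Dpysl3, of the family that relays semaphorin signals to the cytoskeleton, were lower. Dpysl5 averaged 0.743 ± 0.0963 CPM in treated KO and 60.8 ± 11.7 CPM in treated WT (log2 fold change -6.35 ± 0.17, adjusted p = 1.08e-09), and Dpysl3 0.0476 ± 0.0184 CPM in treated KO and 1.11 ± 1.56 CPM in treated WT (log2 fold change -4.51 ± 1.19, adjusted p = 0.00564). None of these lists had a gene called for estrogen or for the interaction.

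Scaling bears on the share of rises. With library size alone in place of TMM, the median of all genes moved by 0.19 with and 0.23 without estrogen on the log2 scale. The share of higher calls, among genes called with the same sign in both treatments, went to 65.3% of all genes and 72.2% of members (26 higher and 10 lower), against 52.5% and 64.3% with TMM.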

How the data were processed

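The deposited values are raw counts of reads per gene, in a table for each library. The authors counted them, per the file headers, with featureCounts 2.0.0 over RefSeq gene exons summed by symbol, each mate on its own, without regard to strand, leaving out reads that mapped to several places or genes, so close paralogs may lack shared reads. Per the submitters' processing notes, FastQC 0.11.7, Trim Galore 0.6.6, STAR 2.7.10b, featureCounts 2.0.3 and GRCm39 were used.

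Counts were filtered with filterByExpr (minimum count 10, minimum total 15), scaled by TMM and fitted with the robust quasi-likelihood test of edgeR 4.0.16 (limma 3.58.1, R 4.3.3) over 12 libraries in 4 groups, two-sided. SE was taken as the log2 fold change over the root of F. DESeq2 1.42.0, other scalings, filters, fits, a replicate block and left-out libraries were tried. The code was checked on simulated counts. Groups with 0 reads were given a floor of 3 reads. Both floors and 95% intervals treat each read as a separate event and hold no spread between libraries. Mates were counted singly, so both mates of a fragment can count, and without molecular identifiers reads are not separate molecules. The intervals are therefore too narrow, and the folds given as at least may be too high. Replicates differed by more than counting error (chi-square per degree of freedom 48.8 to 321). No batch is named in the labels.

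Members and lists were chosen with earlier results of these data known. Library values are given for the 3 members per role with the largest genotype difference called in both treatments at 1 CPM or more, and for the most abundant member of each role. From each wider list the 2 most positive and 2 most negative called genes are named. Members outside that rule are given by means, counts or ranges, except Epha6 and Sema7a, whose library values were chosen after they were seen.

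Same-numbered libraries of KO deviated together (correlation across genes 0.57, 0.50 and 0.41), which pairs the KO libraries by number, from the data and not from the labels. For same-numbered libraries of WT the correlations were -0.16, -0.16 and -0.39, and between KO and WT they were -0.0089 to 0.053. WT libraries of other numbers deviated together: treated 1 with untreated 3 (0.40), treated 2 with untreated 1 (0.27) and treated 3 with untreated 2 (0.46). This match was seen in the data and is not in the labels, and no fit with it was made. Promoter windows were at hand for 47 of 53 members.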

Additional observations from a re-analysis of the deposited data

Results flagged for a closer look

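Sema4d was picked out because estrogen-treated libraries were above untreated ones in every KO library and below them in every WT library. It had 45.1, 48.3 and 48.7 CPM in treated KO, against 41.2, 40.7 and 40.9 CPM in untreated KO, and 81.5, 75.7 and 67.6 CPM in treated WT, against 90.8, 84.9 and 81.9 CPM in untreated WT. The difference between the 2 estrogen effects was 0.41 ± 0.10 on the log2 scale, and edgeR's interaction test did not call it after adjustment over all genes (adjusted p = 0.974). With 3 libraries a group, no test for single outlying libraries was made.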

How the results depend on the processing

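Counts of called members over the whole set stayed within 1.5 times their value under every alternative run, but with library size alone 10 ligands were higher in KO in both treatments, against 6 with TMM, 6 ephrins among them, against 3. Over the settings that left out libraries, members called were 30 to 34 with and 32 to 37 without estrogen, 17 to 20 were higher and 10 to 11 lower in KO in both treatments, 29 to 32 did not overlap, and 0 were called for estrogen in KO, in WT or for the interaction. Over all genes, those settings gave 10618 to 11674 and 10834 to 11952 genotype calls, and 0 to 4 (estrogen in KO), 0 to 54 (in WT) and 0 to 6 (interaction) estrogen calls. By DESeq2 these were 20, 69 and 27 genes. With the replicate block within genotype they were 0, 7 and 4 genes and still 0 members, and an additive replicate block gave 33 and 35 called members with and without estrogen; the block changed the call of Epha2 without estrogen (0.58, adjusted p = 0.0453), and with estrogen those of Ephb6 (-0.68, adjusted p = 0.0255), Efnb2 (0.58, adjusted p = 0.0469) and Plxna1 (0.20, adjusted p = 0.0558), and no other. The KO numbers pair the libraries and the WT numbers do not. In WT, libraries of other numbers deviated together, so the block within genotype did not follow that match. The WT estrogen and interaction results therefore take no account of it.

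Directions turned only for members that were not called in that comparison: with library size alone, Ephb2 (0.16), Sema5a (0.081) and Plxna2 (0.13) without and Plxna2 (0.020) with estrogen; Efna1 with estrogen under the additive block (-0.014), without treated KO replicate 3 (-0.15), treated WT replicate 2 (-0.043), treated WT replicate 3 (-0.00072) or both KO replicates 3 (-0.13, added after seeing the data), with a range of -0.15 to 0.15 over left-out libraries; Sema3d without untreated WT replicate 2 (0.37, range -1.33 to 0.37 without estrogen); and Plxna2 without untreated KO replicate 2 (0.048, range -0.20 to 0.048). The cause was not tested. DESeq2 gave Sema3a no adjusted p. Depth limits Epha3, Epha5, Epha8, Epha10, Sema3g, Sema5b and Plxna4, which had too few reads for a test.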

Other observations

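Of the 38 tested members that averaged at least 1 CPM in WT, untreated WT replicate 3 was the highest of the 6 WT libraries in 15, Epha2, Epha4, Ephb3, Plxnb1, Nrp1 and Nrp2 among them, and this held for 9 of the 13 among these that were higher in KO in both treatments. Untreated WT replicate 2 was the lowest in 12 of the 38, and treated WT replicate 3 in 11. No share over all genes is given beside these counts. The largest coefficients of variation over a genotype's 6 libraries, among tested members that averaged at least 1 CPM in that genotype, were 58.1% for Sema7a in WT, 55.1% for Sema6d and 55.1% for Ephb1 in KO, 54.9% for Nrp1 in WT and 54.0% for Epha4 in WT. Across all tested genes, untreated WT replicate 3 deviated together with treated WT replicate 1 (correlation 0.40). What sets the WT libraries apart was not tested.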
